A study of Mus musculus with 4 samples.

Results

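Lyz1, Lyz2, Ang4, Mmp7 and Itln1 are genes of the mouse gut that act in antimicrobial defence beside the defensins, and they were taken by symbol from a list. All 5 genes were found among the 21006 condensed genes, in which all RefSeq exons of a gene are merged, and all 5 had reads in each of the 4 libraries. Tissue came from the jejunum, labelled as small intestine, and from the distal colon, labelled as colon, of C57BL/6 mice of 9 to 10 weeks. One kind of library, cDNA fragmented (SMART cDNA synthesis from polyadenylated RNA, then the SOLiD V2 fragment protocol), and another kind from RNA labelled as ribosomal RNA depleted (SOLiD V2 Whole Transcriptome Analysis Kit) were sequenced for each tissue. No treatment was given. There is 1 library per tissue and protocol, and how many mice each library holds is not given in the sources used here, so no replicate error can be given within a protocol, and no test between tissues was run. A fit across the 4 libraries with protocol as a block, which takes the protocols as replicates, was not run here. The 95% intervals below cover counting error only. In tissue of mixed cells, fewer cells of a type cannot be told apart from less RNA per cell.

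Paneth cells sit at the base of the crypts of the small intestine and release granules that hold antimicrobial proteins into the crypt lumen. The normal mouse colon holds few or none of them. Lyz1 encodes lysozyme P, the lysozyme of Paneth cell granules, and Lyz2 encodes lysozyme M, the lysozyme of macrophages and other myeloid cells. Both enzymes cut the peptidoglycan of bacterial cell walls. Ang4 encodes angiogenin 4, a secreted member of the RNase A family with bactericidal activity, which goblet cells can also make. Mmp7 encodes matrilysin, the matrix metalloproteinase that cuts mouse pro-α-defensins into their active form. Itln1 encodes intelectin, a lectin secreted by Paneth and goblet cells that binds galactofuranose on microbes.

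Values are reads placed uniquely on the exon blocks of a gene, given as RPKM (reads per 1000 bases of exon and per 1000000 uniquely placed reads). This scales for exon length, but not for the share of a gene in which reads can be placed uniquely, which differs between the 5 genes and is given with them below. Lyz1 (ENSMUSG00000069515.5) lies at chr10:116724852-116729924 and Lyz2 (ENSMUSG00000069516.6) at chr10:116714597-116719328, both on the minus strand of mm9 with 4 exon blocks each. Ang4 (ENSMUSG00000060615.5) lies at chr14:52383567-52393265 on the minus strand with 2 blocks. Mmp7 (ENSMUSG00000018623.8) lies at chr9:7692111-7699416 on the plus strand with 6 blocks. Itln1 (ENSMUSG00000038209.6) lies at chr1:173448255-173465424 on the minus strand with 8 blocks.

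The lysozyme genes are so alike that the sequence itself decides which reads can be counted. The coding stretch of 30 bases in exon 1 in which they differ most is shown 5′ to 3′ from mm9, minus strand, with the differing bases in capitals. It is chr10:116729763-116729792 in Lyz1 and chr10:116719167-116719196 in Lyz2, and it holds 7 base differences, which make 10 differences between the colors that SOLiD reads record for neighbouring bases.
Lyz1: atggAtggctacCGtggTgtcaAGctggcT
Lyz2: atggCtggctacTAtggAgtcaGCctggcC
Exon 3, of 79 bases, is identical in both genes. Its first 30 bases (chr10:116726224-116726253 in Lyz1 and chr10:116715748-116715777 in Lyz2) show why no read there could be assigned to either gene.
Lyz1: ctctgctgcaggatgacatcactgcagcca
Lyz2: ctctgctgcaggatgacatcactgcagcca
Exon 3 accordingly had 0 reads in both genes in all 4 libraries. The other Lyz1 exons were 91.6%, 96.4% and 96.1% identical to their counterparts in Lyz2.

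Ang4 and Itln1 also have near copies, and Mmp7 had none of at least 80% identity. The nearest copy of Ang4 exon 2 is in Ang5, another angiogenin gene of the same chromosome, with 90.1% identity over 619 aligned positions. Their most different 30 coding bases lie at chr14:52383833-52383862 on the minus strand in Ang4 and at chr14:44540451-44540480 on the plus strand in Ang5, with 7 base and 11 color differences in capitals.
Ang4: CacttgTaCgcacTCaggagCgtctcccaG
Ang5: AacttgCaAgcacAAaggagGgtctcccaA
Exons 5 and 6 of Itln1 were 95.5% and 91.7% identical to parts of Gm9765, an intelectin-like gene model next to Itln1 that no exon block covers. The stretch of exon 6 below (chr1:173460702-173460731, minus strand, in Itln1 and chr1:173446942-173446971, plus strand, in Gm9765) holds 7 base and 11 color differences.
Itln1: atacgGagAaggAAagtgttggactGacAA
Gm9765: atacgAagGaggGCagtgttggactTacCG

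Lyz1, Mmp7 and Itln1 were far higher in small intestine than in colon in both protocols, Lyz2 was not, and Ang4 was abundant in both tissues. A gene was called where its RPKM in one tissue was at least 3 times the sum of 1 and the RPKM in the other. Of the 5 genes, 3 were called higher in small intestine in the cDNA fragmented pair, where 2.89% of the 15552 condensed genes with at least 5 reads in either library were so called. The same 3 were called in the ribosomal RNA-depleted pair, with a background of 4.01% of 13954 genes. None was called higher in colon, where the background was 3.4% and 7.05%. These shares are also the background for the calls in the gene lists below. Over all condensed genes, 450 were called higher in small intestine and 528 in colon in the cDNA fragmented pair. Scaling by the median of ratios turned this split to 585 and 348. In the ribosomal RNA-depleted pair the calls were 559 and 984, and 758 and 628 with that scaling. The median log2 ratio of small intestine to colon over all genes with reads in both libraries was -0.40 and -0.34, so each ratio below is 1.32 and 1.27 times higher relative to that median.

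**Figure D1:**
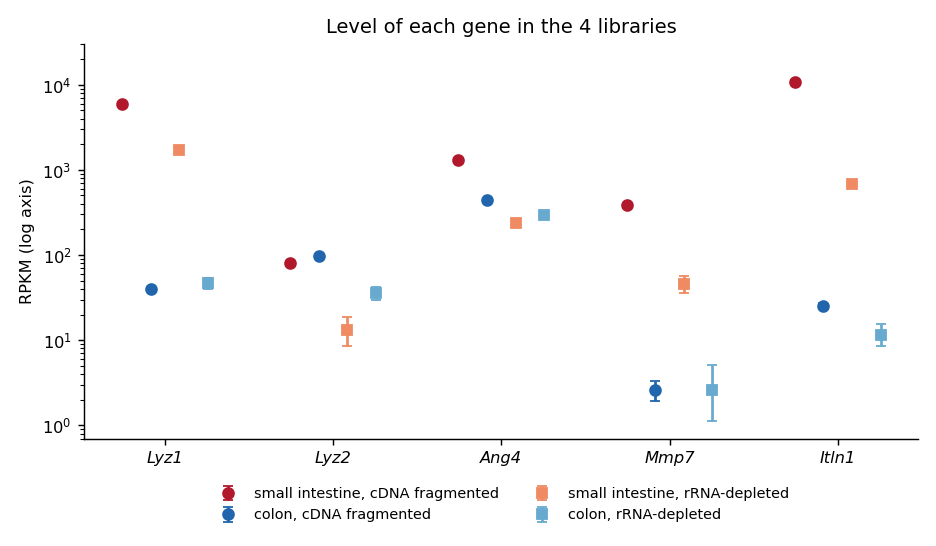
RPKM (log axis) of each gene in the 4 libraries, circles for cDNA fragmented and squares for ribosomal RNA-depleted libraries, with 95% Poisson intervals of the counts. Lyz1, Mmp7 and Itln1 sit far higher in both small intestine libraries than in both colon libraries, and the order of the tissues changes between protocols for Ang4.

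Lyz1 held 169108 small intestine reads and 1241 colon reads by cDNA fragmentation, and in the ribosomal RNA-depleted pair it held 4339 and 204. The levels were 5950 (5922 to 5979) and 39.6 (37.4 to 41.9) RPKM in the first pair. They were 1687 (1637 to 1737) and 46.4 (40.2 to 53.2) RPKM in the second. Both small intestine libraries were thus high and both colon libraries low, and the intervals of the tissues did not overlap. Small intestine exceeded colon by a ratio of 150 (142 to 159) and 36.3 (31.6 to 42.0). Lyz1 ranked 14th and 26th of the 21006 genes in the small intestine libraries.

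The colon reads on Lyz1 were gathered at the end of the gene more than those of small intestine. The RefSeq exon block of Lyz2 ends before that of Lyz1, so the last 206 bases of Lyz1 (chr10:116724852-116725057, the end of exon 4 in the 3′ untranslated region) have a counterpart next to Lyz2 (chr10:116714390-116714596, 95.7% identical) that lies in no exon block. Another part of Lyz1 exon 4 matches chr10:116687806-116687873 (98.6% identical over 69 positions), in no annotated gene and no exon block. Reads from the counterpart next to Lyz2 or from chr10:116687806-116687873 had no place of their own in the deposited matching. The last stretch is 16.3% of the Lyz1 exon length. It held 86.1% (84.0 to 87.9, Wilson interval) of the Lyz1 reads of cDNA fragmented colon, against 46.6% (46.4 to 46.8) in small intestine. In the ribosomal RNA-depleted libraries it held 82.4% (76.5 to 87.0) of the colon reads and 60.4% (58.9 to 61.9) of the small intestine reads. Small intestine also had its highest density there, so the place of the reads alone does not separate the genes.

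**Figure D2:**
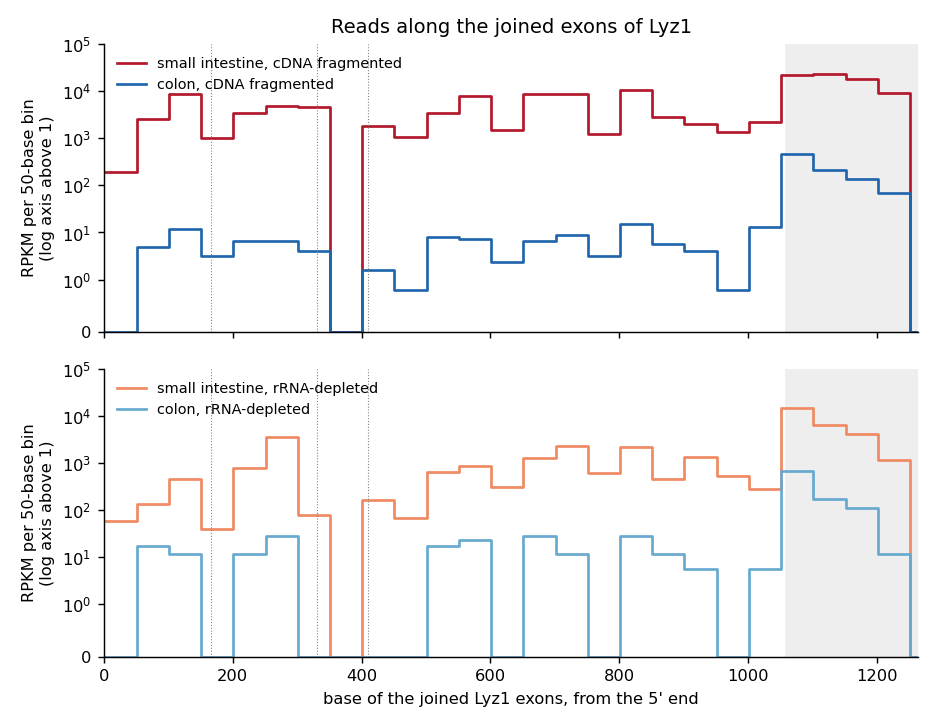
RPKM in bins of 50 bases (log axis above 1) along the joined exons of Lyz1 from the 5′ end, with dotted lines at exon borders and the last 206 bases shaded. In colon the density rises in the shaded stretch far above the rest of the gene, and the bin inside exon 3 is at 0 in all 4 libraries.

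The colors of the reads were compared with Lyz1 and with all its near copies together, so the copies were not told apart. In the last stretch, 42.7% (39.8 to 45.7) of the 1068 cDNA fragmented colon reads had fewer color differences to a copy than to Lyz1, 4.03% had fewer to Lyz1, and 53.3% had equal numbers. Of the 78821 small intestine reads there, 0.632% were nearer to a copy and 58.7% nearer to Lyz1. In the ribosomal RNA-depleted colon library 14 of 168 reads were nearer to a copy and 11 nearer to Lyz1, and in small intestine 3 of 2621 and 505. Most colon reads of the cDNA fragmented library that could be told apart in this stretch therefore carried the sequence of a copy of Lyz1. Nearly all small intestine reads that could be told apart there carried that of Lyz1. Equal numbers were found for 40.7% of the small intestine reads there in the cDNA fragmented library and 80.6% in the ribosomal RNA-depleted one. Outside the stretch 72.3% of the 173 cDNA fragmented colon reads were nearer to Lyz1 and 27.7% had equal numbers, against 95.5% and 4.51% in small intestine. The matching kept only reads with a single placement among the exon blocks, which bears on copies inside exon blocks, so this nearness is no separate evidence.

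**Figure D3:**
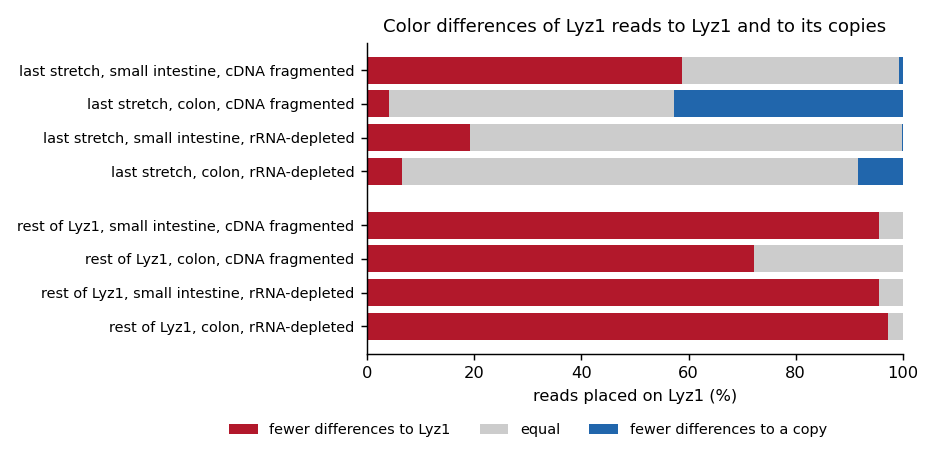
Share of the reads placed on Lyz1 (%) that had fewer color differences to Lyz1 (red), equal numbers (grey) or fewer to a near copy (blue), for the last 206 bases and the rest of the gene in each library. Blue reaches 42.7% in the last stretch of cDNA fragmented colon and 0.632% in that of small intestine.

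Without the last stretch, 173 colon reads remained on Lyz1 in the cDNA fragmented library and 36 in the ribosomal RNA-depleted one. Its colon level over the other 1058 bases was 6.59 (5.65 to 7.65) and 9.78 (6.85 to 13.5) RPKM, against 209 and 234 RPKM in the stretch. The small intestine level outside the stretch was 3795 and 798 RPKM. Small intestine over colon rose to 576 (496 to 672) and 81.6 (58.7 to 117). With reads nearer to Lyz1 than to any copy, from all exons, it was 870 (748 to 1018) and 79.8 (59.6 to 109). With all reads in windows of 35 bases that have a single placement among the exon blocks at up to 3 base mismatches, it was 113 (106 to 119) and 30.6 (26.4 to 35.8). Most colon reads in these windows lie in the last stretch. Small intestine was the higher tissue in each of these versions, and the size of the ratio depended in both pairs on which reads were taken. Reads across Lyz1 exon junctions, which are counted apart from exon reads, numbered 1736 in small intestine and 1 in colon in the cDNA fragmented libraries, and 3 and 0 in the others.

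For Lyz2, 1923 small intestine and 2584 colon reads were placed in the cDNA fragmented pair, and 28 and 132 in the other pair. The levels were 80.9 (77.3 to 84.6) and 98.6 (94.8 to 102) RPKM, and 13.0 (8.65 to 18.8) and 35.9 (30.0 to 42.6) RPKM. Colon was the higher tissue in both pairs, with intervals that did not overlap. It was 1.22-fold (1.15 to 1.29) higher in the first pair and 2.76-fold (1.82 to 4.31) in the second, under the 3-fold rule both times. With median of ratios scaling the first difference turned to 1.09-fold (1.02 to 1.15) higher in small intestine. By start points the ratios of small intestine to colon were 0.949 (0.858 to 1.05) and 0.672 (0.391 to 1.12), with intervals that include 1. Only 13.1% of the 35-base windows of Lyz2 had a single placement at up to 3 base mismatches, against 28.5% for Lyz1, so its levels by exon length are low estimates. Reads were also placed outside these windows, which held 754 of the 1923 small intestine reads of the cDNA fragmented pair. Over these windows Lyz2 stood at 277 and 350 RPKM in the cDNA fragmented pair and at 24.4 and 178 RPKM in the ribosomal RNA-depleted pair, the third value from 6 reads. In the second pair colon was then 7.31-fold (3.21 to 20.6) higher, from 6 and 75 reads and past the 3-fold rule. With at most 1 mismatch the small intestine to colon ratio of that pair was 0.187, also past the rule.

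The other listed lysozyme genes were nearly silent. Of 10 listed members of the lysozyme and lactalbumin family, all were in the exon blocks, and 3 had at least 5 reads in either cDNA fragmented library. The third was Lyzl4, a lysozyme-like gene, with 3 reads in small intestine and 48 in colon (0.134 and 1.94 RPKM) and with 0 and 1 reads in the ribosomal RNA-depleted pair. Lyz1 was the only one called.

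Lyz2 was set beside marker genes of macrophages, which are known for its expression. The 15 macrophage and monocyte markers had a median log2 ratio of small intestine to colon of 0.51 in the cDNA fragmented pair and -0.92 in the ribosomal RNA-depleted pair, beside -0.38 and -0.42 over all genes tested. Of them 1 was called higher in each tissue in the first pair, Cybb, a subunit of the phagocyte oxidase, in small intestine and Cd14, a co-receptor for lipopolysaccharide, in colon, and 1 was called, Cd14, in colon in the second. Over all genes tested 2.89% and 3.4% were called in small intestine and colon in the first pair, and 7.05% in colon in the second. The summed level of the markers was 439 RPKM for small intestine and 536 for colon, and 133 and 284 RPKM in the second pair. Ctss, a lysosomal protease, alone gave 286 and 388 RPKM of the first pair, and the other markers together were slightly higher in small intestine there. None of the 15 was at 0 in any library. Neutrophil genes, which could also bring lysozyme M, summed to at most 3.89 RPKM in any library, with 5 of 9 genes past the read minimum in the first pair and 1 in the second. The part of these cells in the Lyz2 level was not tested.

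Ang4 received 20197 small intestine and 7639 colon reads by cDNA fragmentation, and 336 and 704 with ribosomal RNA depletion. The levels were 1292 (1275 to 1310) and 443 (433 to 453) RPKM, and 238 (213 to 264) and 291 (270 to 314) RPKM. By exon length Ang4 was the only one of the 5 genes above 100 RPKM in both colon libraries, ranking 270th and 214th there. Over uniquely placeable windows Lyz1, at 145 and 160 RPKM, and Lyz2 were above that level in colon too. For Lyz1 this rests on its last stretch, outside which its colon level was 6.59 and 9.78 RPKM. Small intestine was 2.92-fold (2.84 to 2.99) higher in the first pair, just under the rule of 3. In the second pair colon was 1.23-fold (1.08 to 1.40) higher. With median of ratios scaling the second ratio turned to 1.03 (0.905 to 1.18), an interval that includes 1, and the first rose to 3.86 (3.76 to 3.96), past the rule. Between 97.5% and 98.8% of Ang4 reads were nearer to Ang4 than to any copy in each library, and with these alone the ratios were 2.90 and 0.816. The copies in Ang5 and Ang, and parts of those in Ang2 and Ang6, lie in exon blocks. The matching kept only reads with a single placement there, so nearness over these copies is no separate evidence. Of its windows, 32.7% had a single placement at up to 3 base mismatches.

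The other genes of the angiogenin and RNase A family lay below Ang4 in each library. Of 19 listed genes 16 were in the exon blocks, 11 had enough reads in the cDNA fragmented pair and 6 in the other. Besides Ang4, Ang was the angiogenin with the most reads, at 45.5 and 83.3 RPKM in the first pair and 26.1 and 59.2 RPKM in the second, so that colon was the higher tissue both times. Ang2 had 51 and 4 reads and Ang5 and Ang6 12 and 3 reads each in the cDNA fragmented pair, and all 3 had none in the ribosomal RNA-depleted pair, where the limit of 3 reads at their own exon lengths is 3.37 and 1.97 RPKM for Ang2, 2.08 and 1.22 RPKM for Ang5 and 3.32 and 1.94 RPKM for Ang6. Ang2 was the 1 gene called higher in small intestine in the first pair. It is 89.0% identical to Ang4 exon 2 over 620 aligned positions, and its few reads were not compared with Ang4 by color. In the second, Rnase1, the pancreatic ribonuclease, was called in small intestine (146 and 1.19 RPKM) and Rnase4 in colon (57.6 and 217 RPKM). In the cDNA fragmented pair colon was the higher tissue for both, with Rnase1 at 87.3 and 121 RPKM and Rnase4 at 108 and 222 RPKM. Rnase4 shares its exon blocks with Ang in part. Rnh1, the ribonuclease inhibitor that binds angiogenins, stood at 167 and 209 RPKM and at 59.3 and 94.0 RPKM.

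On Mmp7 lay 7530 small intestine reads and 56 colon reads in the cDNA fragmented pair, and 81 and 8 in the second pair. The levels were 381 (373 to 390) and 2.57 (1.94 to 3.34) RPKM, and 45.3 (36.0 to 56.3) and 2.62 (1.13 to 5.16) RPKM. The colon level was nearly the same number in both protocols, and both small intestine levels lay far above it. The ratio was 148 (114 to 197) and 17.3 (8.38 to 41.4). Every exon of Mmp7 had reads in small intestine in both protocols, and all 6 had reads in cDNA fragmented colon. Since all its windows could be placed and no copy was found, Mmp7 is the gene of the 5 whose count depends least on related sequences.

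Among the matrix metalloproteinases and their inhibitors, Mmp7 had the highest level in either small intestine library. All 27 listed genes were in the exon blocks. Of the 21 with enough reads in the cDNA fragmented pair, 2 were called in small intestine and none in colon, with a median log2 ratio of -0.57. The second call was Mmp10, stromelysin 2, a neighbour of Mmp7 on chromosome 9, with 2656 and 83 reads (68.9 and 1.95 RPKM). In the ribosomal RNA-depleted pair Mmp10 had 30 and 3 reads (8.60 and 0.503 RPKM), and the same 2 genes were called in small intestine and 5 of 19 in colon, with a median of -1.89. Over all genes tested, 2.89% and 3.4% were called in small intestine and colon in the first pair and 4.01% and 7.05% in the second. The medians over all genes tested were -0.38 and -0.42. Mmp15, a membrane-bound member, was the most abundant of the list in ribosomal RNA-depleted colon, at 66.2 RPKM there and 14.7 RPKM in small intestine, and at 3.27 and 0.437 RPKM in the cDNA fragmented colon and small intestine libraries. Timp3, the inhibitor with the highest level, stood at 20.3 RPKM for small intestine and 19.7 for colon in the first pair and at 9.66 and 43.4 RPKM in the second, on exon blocks that it shares with another gene.

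Itln1 gathered 278319 small intestine reads against 712 from colon by cDNA fragmentation, and 1599 against 46 with ribosomal RNA depletion. The levels were 10877 (10837 to 10918) and 25.2 (23.4 to 27.2) RPKM, and 690 (657 to 725) and 11.6 (8.51 to 15.5) RPKM. Itln1 took 1.24% of all uniquely placed reads of cDNA fragmented small intestine and ranked 7th there, 74th in the other small intestine library. Small intestine over colon came to 431 (401 to 465) and 59.4 (44.3 to 81.5), the highest ratio of the 5 genes in both pairs by all reads. By reads nearer to the gene than to its copies, the Lyz1 ratio was higher in both. The intervals overlapped in the ribosomal RNA-depleted pair, at 79.8 (59.6 to 109) for Lyz1 and 56.5 (41.7 to 78.4) for Itln1. All 8 exons had reads in all 4 libraries, and all its windows could be placed uniquely among the exon blocks, which do not cover Gm9765. Reads nearer to Itln1 than to Gm9765 made up 88.9% to 95.3% of the total, and with these alone the ratios were 433 and 56.5. Gm9765 matches only exons 5 and 6, so reads of the other exons had no copy to be nearer to. In ribosomal RNA-depleted small intestine exons 5 and 6 held 371 and 154 reads, and 175 reads were equally near to both genes. The ratios from nearer reads are therefore no separate evidence. Of the intelectin list Itln1 was the 1 gene found by symbol.

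**Figure D4:**
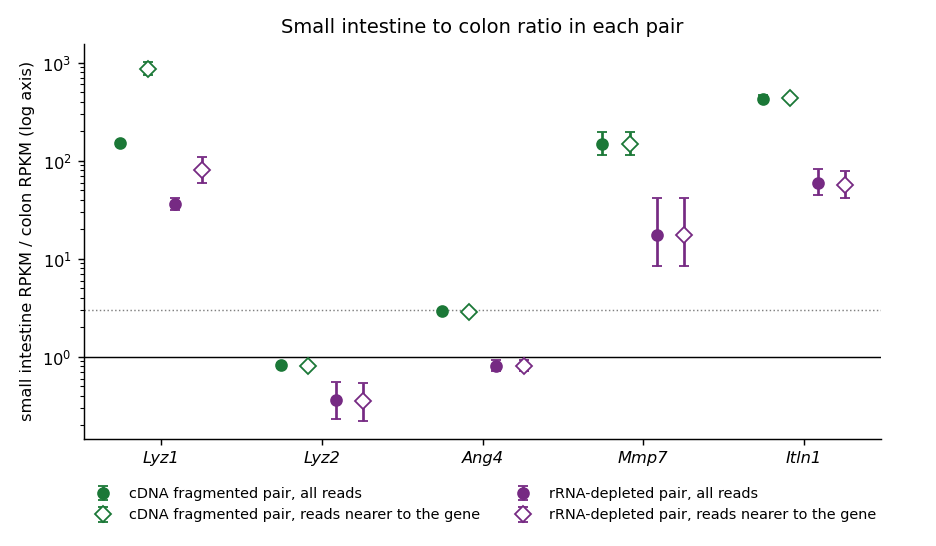
Ratio of small intestine to colon RPKM (log axis) for each gene with its 95% counting interval, from all reads (filled) and from reads nearer to the gene than to its copies (open), with lines at 1 and at 3. The choice of reads moves Lyz1 from 150 to 870 in the cDNA fragmented pair and leaves Lyz2, Ang4 and Itln1 within their intervals. The latter is no separate evidence. Most copies of Lyz2 and Ang4 lie in exon blocks, among which the matching had kept only single placements. The copy of Itln1 covers only exons 5 and 6.

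The order of the genes in small intestine depended on protocol and on how length was counted. By exon length it was Itln1, Lyz1, Ang4, Mmp7, Lyz2 in the cDNA fragmented library and Lyz1, Itln1, Ang4, Mmp7, Lyz2 in the other, with no overlap between the intervals of neighbours. Per uniquely placeable window, Lyz1 (16315 RPKM) passed Itln1 (13927 RPKM) in the cDNA fragmented library also, and in the ribosomal RNA-depleted library the values were 4898 and 901 RPKM. These Lyz1 values include its last stretch, at 17018 and 6251 RPKM, against 3795 and 798 RPKM over its other bases. In that stretch 40.7% and 80.6% of the reads were equally near to a copy. Per placeable window Ang4 stood at 2491 and 649 RPKM and Mmp7 at 482 and 59.0 RPKM in the small intestine libraries. In colon, by exon length, Ang4 was first, followed by the lysozymes, Itln1 and Mmp7 in both protocols. Lyz1 lay below Lyz2 in cDNA fragmented colon, and their intervals overlapped in ribosomal RNA-depleted colon. Most of the Lyz1 reads in colon are those of its last stretch.

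All 5 genes had a higher ratio of small intestine to colon in the cDNA fragmented pair than in the ribosomal RNA-depleted pair. The difference of the log2 ratios, with 0.1 RPKM added, was 2.05 for Lyz1, 1.17 for Lyz2, 1.84 for Ang4, 3.10 for Mmp7 and 2.87 for Itln1, and 0.11 for the median of 13710 genes tested in both pairs. From reads nearer to Lyz1 than to its copies the difference for Lyz1 was 3.45, above that of Mmp7, and without the last stretch it was 2.82. Over placeable windows it was 1.88 for Lyz1 and 2.54 for Lyz2, the latter resting on 6 small intestine reads in the ribosomal RNA-depleted library. By start points the order of the pairs turned for Lyz1, at 5.15 against 10.7, and for Itln1, at 3.57 against 17.4. In small intestine the cDNA fragmented level was 3.53-fold (3.42 to 3.64) that of the ribosomal RNA-depleted library for Lyz1, 5.44-fold (4.89 to 6.08) for Ang4, 6.22-fold (4.29 to 9.38) for Lyz2, 8.42-fold (6.76 to 10.6) for Mmp7 and 15.8-fold (15.0 to 16.6) for Itln1, where the median gene was at 0.664. In colon the same comparison gave 0.853 to 2.75 for the 5 genes and 0.624 for the median gene. Protocol cannot be told apart from the mice and RNA preparations used for it.

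Strand was resolved in the ribosomal RNA-depleted libraries only. There all reads of the 5 genes, from 8 for Mmp7 in colon to 4339 for Lyz1 in small intestine, lay on the sense strand, where 98.5% and 98.6% of the reads of all genes did. For Lyz1 in small intestine this gives a sense share of 99.9% to 100%. In the cDNA fragmented libraries between 44.3% and 55.4% of the reads of each gene were sense, beside 48.3% and 48.2% for all genes.

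The 3 called genes and Ang4 belong to a wider list of Paneth cell genes, and its counts include them. Of 34 listed Paneth cell genes, α-defensins included, 31 were in the exon blocks and 28 had enough reads in each pair. In the cDNA fragmented pair 17 were called in small intestine and 1 in colon, with a median log2 ratio of 5.22. In the ribosomal RNA-depleted pair it was 16 and 3, with a median of 3.54. The list's highest levels were those of the α-defensins Defa24 (38794 and 10.0 RPKM in the first pair, 1091 and 1.02 RPKM in the second) and Defa20 (18778 and 7.93 RPKM, 5024 and 24.9 RPKM) and of Reg3b, a secreted C-type lectin (19074 and 526 RPKM, 697 and 111 RPKM). The α-defensins are near-identical copies of each other, so their split is uncertain. Reg3g, a bactericidal C-type lectin, stood at 11216 and 120 RPKM in the first pair and 932 and 74.7 RPKM in the second. Nupr1 was called in colon in both pairs, and Cd24a and Ephb3 in the second. Of the 28 genes, 6 had the higher level in colon in the first pair and 8 in the second.

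Other cell types differed between the tissues too. The 9 small intestinal enterocyte markers were all called in small intestine in both pairs, and 6 of 7 colonocyte markers in colon in both. Goblet cell markers, which mark another cell type that can make Ang4 and Itln1, summed to 16366 RPKM for small intestine and 38588 for colon in the first pair and to 4555 and 10723 RPKM in the second. Of the 8 genes found, 3 were called in colon in the first pair and 4 in the second, and none in small intestine. Agr2, a chaperone of mucin folding and their most abundant gene in cDNA fragmented colon, stood at 3038 and 15256 RPKM in the first pair and at 104 and 1685 RPKM in the second. Clca3 (444 and 4495 RPKM) and Zg16 (1974.5 and 1979.9 RPKM) lay above it in ribosomal RNA-depleted colon, Zg16 at nearly the same level in both tissues. All 8 genes were higher in colon in the first pair and 7 in the second. The exception was Fcgbp, at 698 and 430 RPKM, on exon blocks that it shares with another gene. The part of goblet cells in the Ang4 level was not tested. Pancreatic acinar genes stood apart by library, with 11 of 14 called in colon in the cDNA fragmented pair and 12 of 13 in small intestine in the ribosomal RNA-depleted pair. Their summed level was 107 and 1294 RPKM, and 4065 and 303 RPKM. The part of acinar RNA in the levels of the 5 genes was not tested.

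**Figure D5:**
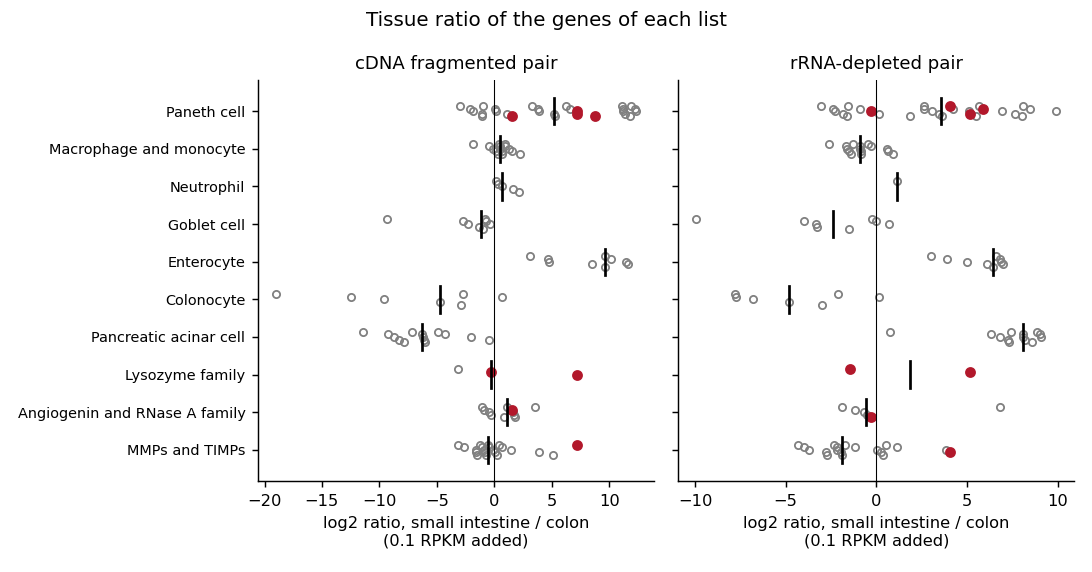
Log2 ratio of small intestine to colon (0.1 RPKM added) of each gene with at least 5 reads in either library of a pair, by marker list, with the 5 genes in red, the others open and black bars at list medians. Lyz1, Mmp7 and Itln1 lie right of 0 in both pairs, and the acinar list lies left of 0 in the first and right of it in the second.

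The genes most like each of the 5 were sought by the distance between log2 levels (0.1 RPKM added, centred on each gene's mean) over the 4 libraries, among 11238 genes with at least 50 reads in at least 2 of them. Nearest to Lyz1 were Bcl2l15 (distance 0.48), Ada (0.56) and Enpp3 (0.57). Nearest to Mmp7 were Gzma, a granule protease of cytotoxic lymphocytes (0.57), Reg3g (0.81) and Bcl2l15 (0.93). Itln1 had no close neighbour, with Ccl25, a chemokine of small intestinal epithelium, at 1.35, Apoc3 at 1.74 and Ms4a10 at 1.77. Nearest to Lyz2 was Ctss, the lysosomal protease of the macrophage list (0.11), followed by Upb1 (0.14) and Arpc3 (0.16). In the cDNA fragmented pair 12 of the 15 macrophage markers were higher in small intestine, unlike Lyz2, and 3, Ctss among them, were higher in colon. The tally turned in the ribosomal RNA-depleted pair, where 12 of the 15 lay higher in colon, as did Lyz2. Nearest to Ang4 were Arhgap15 (0.25), Aplnr (0.26) and Gbp2 (0.30), all at much lower levels. With 4 libraries such likeness is a description only.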

How the data were processed

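RNA-Seq reads of 4 libraries, 1 per tissue and protocol, were analysed. The authors deposited match files that hold the color sequence, position, strand and mismatches of single reads, and the counts used here were made from these. In the deposited files reads of 35 colors had been matched to RefSeq exon blocks of mm9 and their junctions with up to 3 mismatches, and a read was kept where it had a single placement among them. Total reads were 77504263 and 83302412 in cDNA fragmented small intestine and colon, and 36419942 and 37466674 in the ribosomal RNA-depleted libraries, named so after their labels. The study describes polyadenylated RNA for its libraries of the Whole Transcriptome Analysis Kit, but gives other read totals and longer reads for them. Uniquely placed reads were 22484041, 24798934, 2035386 and 3478387 and equal the authors' reports, so 1 read of Lyz1 was worth 0.0319 to 0.389 RPKM.

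Exon blocks joined by junctions were taken as condensed genes and named from GENCODE M1. Reads were given to the block that holds their mid-point, and junction reads were left out. RPKM intervals are exact Poisson, shares Wilson and ratios exact binomial, all at 95%, and the limit for a count of 0 was 3 reads. The 3-fold rule had a penalty of 1 RPKM. Copies of at least 80% identity over 35 bases were found with blastn 2.17.0, placeable windows with bwa 0.7.19. A window was placeable where no other place in the exon blocks matched it at up to 3 base mismatches. The deposited matching counted color mismatches instead. The first color, which includes the primer base, was left out of comparisons with copies, so 34 colors were compared. Calculations used numpy 2.4.6, pandas 2.3.3 and scipy 1.17.1, and were tested on simulated data. Named genes were the 5 genes, the 3 nearest by pattern to each, genes of each list with the highest levels, and family members. Timp3, Cybb, Rnase1, Fcgbp, Cd24a, Ephb3 and Nupr1 were named after their values were seen. Members and lists were chosen with earlier results of these data known.

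Alternatives were median of ratios scaling, at most 1 mismatch, start points, the sense strand, a penalty of 0.1 RPKM, no read minimum and placeable windows. Reads nearer to the gene than to its copies, Lyz1 without its last stretch, and ratios over placeable windows, were added after the data had been seen. No protein sequence was used here.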

Additional observations from a re-analysis of the deposited data

Results flagged for a closer look

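Ang4 went opposite ways in the pairs of libraries. Small intestine over colon came to 2.92 in the cDNA fragmented pair and 0.816 in the ribosomal RNA-depleted pair, with counting intervals on either side of 1. With median of ratios scaling the ratios were 3.86 (3.76 to 3.96) and 1.03 (0.905 to 1.18), and with start points 1.20 (1.10 to 1.31) and 1.13 (0.830 to 1.52). Under both, small intestine was higher in the first pair, and the interval of the second included 1. The difference between the pairs was not tested, since each pair is 1 library per tissue.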

How the results depend on the processing

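A fit of tissue with protocol as a block was not run. Lyz1, Mmp7 and Itln1 were higher in small intestine under every alternative run for their ratios. Ratios of small intestine to colon outside the counting interval of the reported value are given first for the cDNA fragmented pair. With median of ratios scaling they were 199 for Lyz1, 1.09 for Lyz2 (turned), 3.86 for Ang4 and 570 for Itln1. With at most 1 mismatch they were 0.751 for Lyz2 and 3.13 for Ang4, which then passed the 3-fold rule. With start points they were 5.15 for Lyz1, 0.949 for Lyz2, 1.20 for Ang4, 26.0 for Mmp7 and 3.57 for Itln1. The number of start points is bounded by the exon length, and cDNA fragmented small intestine had 155 reads per start point on Itln1 against 1.35 in colon. In the ribosomal RNA-depleted pair median of ratios scaling gave 46.1 for Lyz1 and 1.03 for Ang4 (turned), and at most 1 mismatch gave 0.187 for Lyz2, the 1 gene then called in colon. Start points gave 10.7 for Lyz1, 0.672 for Lyz2, 1.13 for Ang4 (turned), 8.34 for Mmp7 and 17.4 for Itln1. The start point intervals of Lyz2 included 1 in both pairs. Reads nearer to Lyz1 gave 870 and 79.8, and Lyz1 without its last stretch 576 and 81.6. Placeable windows gave 113 and 30.6 for Lyz1 and 0.137 for Lyz2 in the ribosomal RNA-depleted pair. A penalty of 0.1 RPKM called 691 genes in small intestine and 1345 in colon, and 919 and 2188 in the ribosomal RNA-depleted pair. Median of ratios scaling called 348 and 628 in colon. The other 50 values stayed within the counting interval of the reported ratio or within 1.5 times the reported count. Placeable windows moved 17 of 20 levels past their counting intervals. Causes were not tested. Depth limits Mmp7 and Lyz2 most, which rest on 8 and 28 reads in 1 ribosomal RNA-depleted library each.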
